A study of Homo sapiens with 6 samples.

Results

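The Polycomb complex genes EZH1, EZH2, EED, SUZ12, BMI1, RING1, RNF2, CBX2 and CBX8 were looked up in ChIP-seq lists of N-Myc and JMJD6 from CHP-134 cells, a human neuroblastoma line. They were chosen by name, as 9 of the 20136 protein-coding genes of the annotation. A gene counted as listed when a row of the promoter, typical enhancer or super-enhancer lists named it, and the common peaks overlapping that row were taken with it. The cells were untreated, and each protein was precipitated in 3 samples. N-Myc samples were fixed with formaldehyde alone and JMJD6 samples with disuccinimidyl glutarate and then formaldehyde, so the protein and the fixation cannot be told apart. Peaks had to recur in each of the 3 replicates to be listed, and the values are positions on GRCh37. Peak heights and reads behind each peak were not given, so the depth is unknown and the replicates have no measurable spread here. Counts below are therefore descriptions with no test, set beside the share of all coding genes. All samples came from 1 cell line.

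Polycomb proteins keep genes silent through histone marks. Polycomb repressive complex PRC2 methylates histone H3 on lysine K27, with EZH2 or EZH1 as its catalytic subunit and EED and SUZ12 among its other core subunits. PRC1 ubiquitinates histone H2A through the E3 ligases RING1 and RNF2, which pair with a PCGF protein such as BMI1, and its CBX subunits, among them CBX2 and CBX8, read the K27 mark. N-Myc is the MYC family transcription factor whose gene is amplified in aggressive neuroblastoma, and it binds the E-box CACGTG. JMJD6 is a jumonji domain protein described as an arginine demethylase and lysyl hydroxylase.

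N-Myc was listed at the promoters of EZH1, CBX2 and CBX8, 3 of the 9 genes. Over all coding genes the share with an N-Myc promoter was 17.5%. A typical enhancer bound by N-Myc was assigned to 5 of the 9 genes (EZH1, EZH2, RING1, CBX2 and CBX8), beside 31.9% of coding genes. No promoter was listed for JMJD6, which was listed at 0.626% of coding genes. A JMJD6 typical enhancer was assigned to EZH2 alone among the 9, beside 0.909% of coding genes. No super-enhancer of either protein was assigned to any of the 9, where the shares of coding genes were 1.31% for N-Myc and 0.0745% for JMJD6. EED, SUZ12, BMI1 and RNF2 were in none of the lists. At least 1 list thus named 5 of the 9, beside 37.3% of coding genes. No row shared by both proteins named a Polycomb gene of the 9. Those shared lists were short, with 84 promoter, 65 typical enhancer and 7 super-enhancer rows, and their share of coding genes was not counted.

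**Figure D1:**
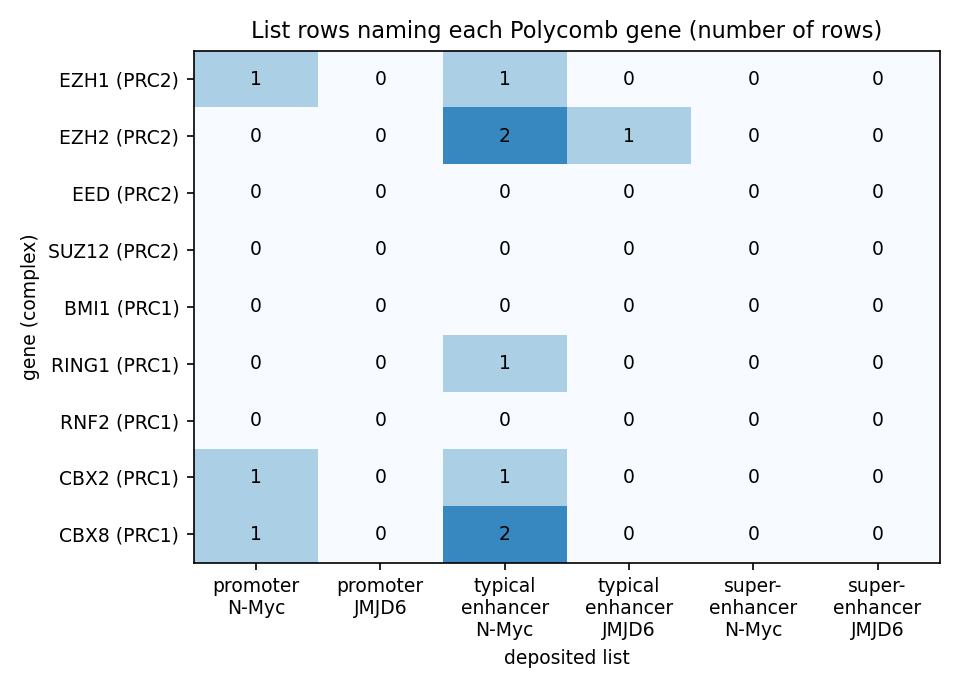
Number of rows naming each gene (y axis, with its complex) in the promoter, typical enhancer and super-enhancer lists of N-Myc and JMJD6 (x axis), where darker cells hold more rows. The 3 genes with an N-Myc promoter row also have an N-Myc enhancer row, and the only JMJD6 row belongs to EZH2.

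EZH1, the catalytic subunit of PRC2 that is also expressed in cells that do not divide, had its promoter listed for N-Myc at chr17:40896114-40898114 on the minus strand. The promoter is the window of 1 kb on each side of a RefSeq start site. It held 1 N-Myc peak, chr17:40896153-40896646, which lay in an EZH1 intron. The peak was 494 bp wide and ran from 468 to 961 bp downstream of the listed start. It held 1 canonical E-box, 58 bp from the peak centre and 657 bp downstream of the listed start. The sequence around it (chr17:40896383-40896532, minus strand, GRCh37) is shown because it is the only CACGTG in a promoter peak of the 9 genes, and capitals mark that motif.
EZH1 intron: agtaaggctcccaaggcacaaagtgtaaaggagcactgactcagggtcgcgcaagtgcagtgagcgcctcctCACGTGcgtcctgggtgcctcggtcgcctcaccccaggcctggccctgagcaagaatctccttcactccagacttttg

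The same peak lay in the typical enhancer assigned to EZH1, chr17:40896116-40897012, 897 bp long and centred 484 bp from the EZH1 start. That enhancer named CNTNAP1 as well. The promoter and the enhancer of EZH1 thus rested on 1 and the same peak. The nearest JMJD6 peak was 541 kb from an EZH1 start site.

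EZH2, the main methyltransferase of PRC2 in dividing cells, had no listed promoter. Its nearest N-Myc peak lay 56.4 kb from its start, and 54.5% of coding genes had a nearer one. It was instead named in 3 typical enhancers, all upstream, between EZH2 and PDIA4, a gene for a protein disulfide isomerase of the endoplasmic reticulum. Each of these rows named PDIA4 as well, since the authors gave the nearest genes on either side. The first N-Myc enhancer, chr7:148637584-148638890, was placed at -56867 bp from EZH2, with the minus sign meaning upstream. Its N-Myc peak, chr7:148637772-148638823, was 1052 bp wide and covered the whole of RNY5, which encodes a Y RNA, a small noncoding RNA made by RNA polymerase III. A further N-Myc peak of 359 bp, chr7:148638987-148639345, lay just outside that enhancer. The second N-Myc enhancer, chr7:148724666-148726523, was placed at -144224 bp from EZH2 and overlapped the N-Myc promoter listed for PDIA4. Its peak, chr7:148725769-148726371, was 603 bp wide and started just upstream of the PDIA4 gene.

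Both enhancer peaks held 1 CACGTG, a motif found in 33.5% of all N-Myc peaks. In the peak over RNY5 it lay at -390 bp from the peak centre, on the side of EZH2, and in the peak beside PDIA4 it lay at -10 bp. The peak over RNY5 also held 3 copies of CACGCG nearer to its centre, and the peak beside PDIA4 held none. The sequences around the E-boxes are printed to show the motif in the N-Myc peaks assigned to EZH2, with CACGTG in capitals. They are chr7:148637855-148637960 on the plus strand and chr7:148726008-148726113 on the minus strand, both on GRCh37.
RNY5 peak: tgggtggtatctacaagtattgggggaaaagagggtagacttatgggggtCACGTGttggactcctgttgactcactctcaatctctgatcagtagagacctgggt
PDIA4 peak: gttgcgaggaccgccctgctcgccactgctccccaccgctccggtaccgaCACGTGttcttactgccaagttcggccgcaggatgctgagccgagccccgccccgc

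The JMJD6 enhancer assigned to EZH2, chr7:148679953-148684652, was 4700 bp long and was placed at -100932 bp. It held 1 JMJD6 peak and no N-Myc peak. The JMJD6 peak, chr7:148684043-148684569, was 527 bp wide and covered the whole of RNY1, another Y RNA gene, while RNY3 lay elsewhere in the enhancer. A promoter of the noncoding gene GHET1 in the same enhancer was also listed for JMJD6. The peak had a GC content of 36.4% and no CACGTG. The stretch upstream of RNY1 (chr7:148684321-148684470, minus strand, GRCh37) is shown because it lies in the only JMJD6 peak assigned to the 9 genes, and capitals mark the first bases of RNY1.
RNY1: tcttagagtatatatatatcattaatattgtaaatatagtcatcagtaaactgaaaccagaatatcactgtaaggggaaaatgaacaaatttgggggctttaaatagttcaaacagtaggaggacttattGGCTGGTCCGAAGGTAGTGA

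Across the interval, RNY5 lay under N-Myc and RNY1 under JMJD6, and neither peak was shared. The other Y RNA genes of the cluster, RNY3 and RNY4, lay under no listed peak of either protein. The 3 regions named for EZH2 therefore stood over Y RNA genes or at the PDIA4 start, at 56.9 kb, 101 kb and 144 kb from EZH2, and which gene they act on was not measured.

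**Figure D2:**
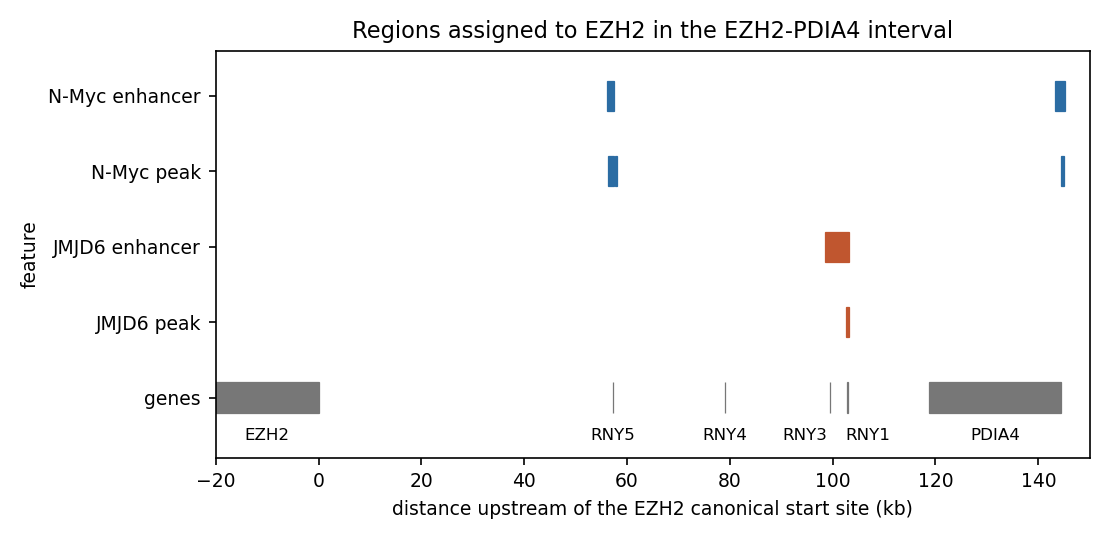
Typical enhancers and peaks of N-Myc (blue) and JMJD6 (red) and genes (grey) by distance upstream of the EZH2 canonical start site (x axis, kb), with EZH2 cut off at the left edge. The N-Myc peaks stand at RNY5 and at the PDIA4 start, and the JMJD6 peak stands at RNY1.

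EED, the PRC2 subunit that binds the K27 mark, and SUZ12, the subunit that holds the complex together, had no row. The nearest N-Myc peak was 239 kb from an EED start site, in an intron of PICALM, and 81.9% of coding genes had a nearer one. For SUZ12 the nearest N-Myc peak lay 21.4 kb away, in an intron of LRRC37B, measured from an internal SUZ12 start. JMJD6 peaks lay 3044 kb from EED and 2984 kb from SUZ12.

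In PRC1 the catalytic subunits were not listed at their promoters. RING1 was named in 1 N-Myc enhancer, chr6:33216374-33218058, placed 40944 bp downstream of its start. This enhancer also named VPS52, overlapped an N-Myc promoter listed for the noncoding gene HCG25, and its 459 bp peak held no CACGTG. A nearer N-Myc peak, chr6:33168184-33168705, lay 7.57 kb from the RING1 start over exons of RXRB and SLC39A7, and it was not assigned to RING1. RNF2, the other E3 ligase, had its nearest N-Myc peak 379 kb away, beyond the distance of 89.5% of coding genes. The nearest JMJD6 peaks lay 95.9 kb from RING1 and 4011 kb from RNF2.

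BMI1, the PCGF subunit that activates the E3 ligase in canonical PRC1, was not listed either. The nearest N-Myc peak was 296 kb away, in an intron of PIP4K2A, with JMJD6 no nearer than 1792 kb. Its promoter nonetheless held 1 CACGTG, at -68 bp from the canonical start. Of the 1150 coding genes with a CACGTG within 100 bp of their canonical start, 31.1% had a promoter listed for N-Myc (95% confidence interval 28.5 to 33.9%). The BMI1 sequence (chr10:22609910-22610015, plus strand, GRCh37) is printed as an example of a canonical E-box close to a start site with no listed peak, with the motif in capitals.
BMI1 upstream: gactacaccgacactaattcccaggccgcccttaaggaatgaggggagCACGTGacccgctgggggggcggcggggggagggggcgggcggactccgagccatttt

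CBX2 and CBX8, the chromodomain subunits, are neighbours on chromosome 17 and were both listed for N-Myc. The CBX2 promoter, chr17:77750976-77752976 on the plus strand, held 1 peak at chr17:77752593-77752964, in a CBX2 intron. This peak was 372 bp wide and ran from 617 to 988 bp downstream of the listed start. The CBX8 promoter, chr17:77769915-77771915 on the minus strand, held 1 peak at chr17:77770187-77770504, which spanned a CBX8 exon and intron sequence. It was 318 bp wide and ran from 411 to 728 bp downstream of the listed start. Neither peak held CACGTG. The CBX8 peak held 1 copy of CACGCG, a non-canonical E-box, 457 bp downstream of the listed start, and 3 copies of CATGCG. The CBX2 peak held neither of these and 1 match to the loose pattern CANNTG, at 687 bp. CATGCG was added after the sequences had been seen.

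Sequence from both peaks is shown as the contrast to EZH1 (CBX2, chr17:77752628-77752927, plus strand, and CBX8, chr17:77770340-77770504, minus strand, both on GRCh37). Capitals mark CANNTG in CBX2, and CACGCG or CATGCG, on either strand, in CBX8, where 1 of the 3 copies of CATGCG lies outside the stretch.
CBX2 intron: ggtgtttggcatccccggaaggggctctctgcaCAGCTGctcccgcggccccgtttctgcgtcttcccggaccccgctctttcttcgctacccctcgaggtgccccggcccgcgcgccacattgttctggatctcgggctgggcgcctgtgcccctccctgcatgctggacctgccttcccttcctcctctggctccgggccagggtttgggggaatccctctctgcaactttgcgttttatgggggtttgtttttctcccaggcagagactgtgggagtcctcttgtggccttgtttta
CBX8 intron: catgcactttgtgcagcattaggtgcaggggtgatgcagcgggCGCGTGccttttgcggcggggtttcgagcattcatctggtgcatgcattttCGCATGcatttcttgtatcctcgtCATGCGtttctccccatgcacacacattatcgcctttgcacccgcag

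Each of these promoters did hold a CACGTG, but outside its peak. It lay at -768 bp from the listed start of CBX2 and at -77 bp from that of CBX8. The stretches around them (CBX2, chr17:77751158-77751263, plus strand, and CBX8, chr17:77770942-77771047, minus strand, GRCh37) are printed for comparison with BMI1, with the motif in capitals.
CBX2 upstream: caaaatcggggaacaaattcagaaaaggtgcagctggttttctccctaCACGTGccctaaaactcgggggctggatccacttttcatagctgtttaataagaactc
CBX8 upstream: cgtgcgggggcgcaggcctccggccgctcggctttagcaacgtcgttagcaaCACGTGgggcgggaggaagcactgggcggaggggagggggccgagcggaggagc

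The CBX genes also shared their enhancers. The N-Myc enhancer chr17:77751212-77753184 named both CBX2 and CBX8, at 267 and 18717 bp, and its only N-Myc peak was the CBX2 promoter peak. A longer enhancer, chr17:77769888-77788503, of 18.6 kb, named CBX8 at -8280 bp and another gene as well. It held the CBX8 promoter peak and a second N-Myc peak of 401 bp, chr17:77774242-77774642, which lay in a CBX8 intron of the annotation and over an exon of a noncoding gene. The rows of CBX2 and CBX8 thus rested on 3 peaks in all. The nearest JMJD6 peak, the same for both genes, lay 915 kb from CBX2 and 934 kb from CBX8.

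**Figure D3:**
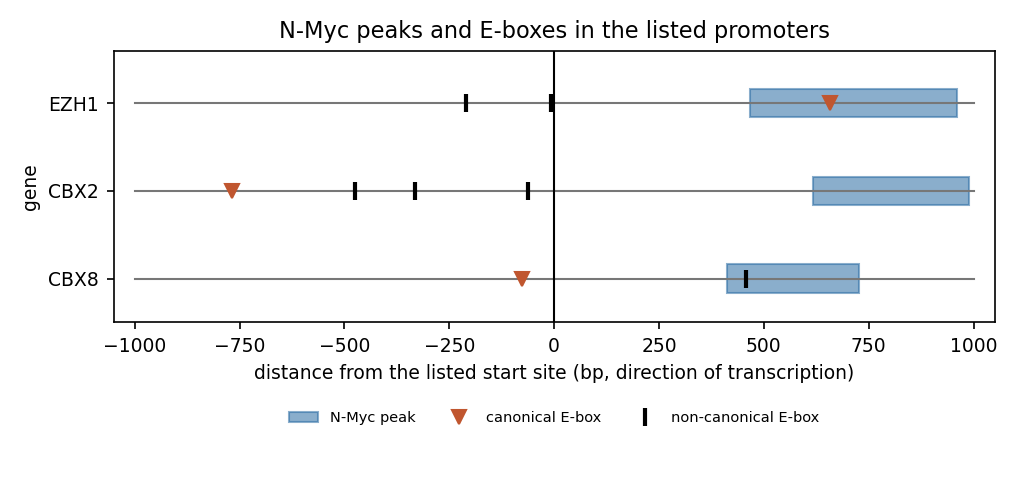
N-Myc peaks (blue boxes), CACGTG E-boxes (triangles) and CACGCG E-boxes (ticks) in the listed promoters of EZH1, CBX2 and CBX8, by distance from the listed start site (x axis, bp, positive in the direction of transcription). All 3 peaks lie downstream of the start, and only the EZH1 peak contains a triangle, at 657 bp.

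Each of the 3 promoter peaks lay wholly downstream of the listed start, and none covered an annotated start site of any gene. The share of all promoter peaks that lay wholly downstream was not counted, so that position has no background here. Among the 3550 N-Myc peaks that overlapped a listed promoter, 33.2% covered no annotated start site. In width the EZH1 peak exceeded 57.7% of those peaks, the CBX2 peak 32.4% and the CBX8 peak 19%, around a median of 452 bp. The GC content was 52.4% for EZH1, 59.1% for CBX2 and 47.5% for CBX8, beside a median of 58.3%. CACGTG was found in 36.9% of the 3550 peaks and CACGCG in 29.2%, so 1 of 3 peaks with CACGTG was near the background. CATGCG was found in 19% and CANNTG in 87.1%.

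In the 2001 bp around the canonical start site, CACGTG occurred in 4 of the 9 genes, namely EZH1, BMI1, CBX2 and CBX8, with 1 copy each. The share was 29.3% over 19856 coding genes, 47% among those listed for N-Myc and 25.4% among those not listed. All 3 listed genes and 1 of the 6 unlisted genes held the motif. CACGCG occurred in 8 of the 9 genes, EED being the exception, beside 41.4% of coding genes. A match shows only that these letters are in the window.

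The distance to the nearest N-Myc peak spread the 9 genes widely. EZH1, CBX2 and CBX8 had a peak within 1 kb of an annotated start (387, 600 and 372 bp), as their promoter listing implies. Of all coding genes, 20.8% had a peak that near. RING1 followed at 7.57 kb, then SUZ12 at 21.4 kb and EZH2 at 56.4 kb, and EED, BMI1 and RNF2 lay at 239, 296 and 379 kb. The median of coding genes was 44.5 kb, with quartiles of 4.35 and 162 kb, so these last 3 genes were past the upper quartile. For JMJD6 the median was 2513 kb, with quartiles of 734 and 6942 kb. RING1, EZH2 and EZH1 lay below the lower JMJD6 quartile and no Polycomb gene of the 9 lay above the upper one.

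**Figure D4:**
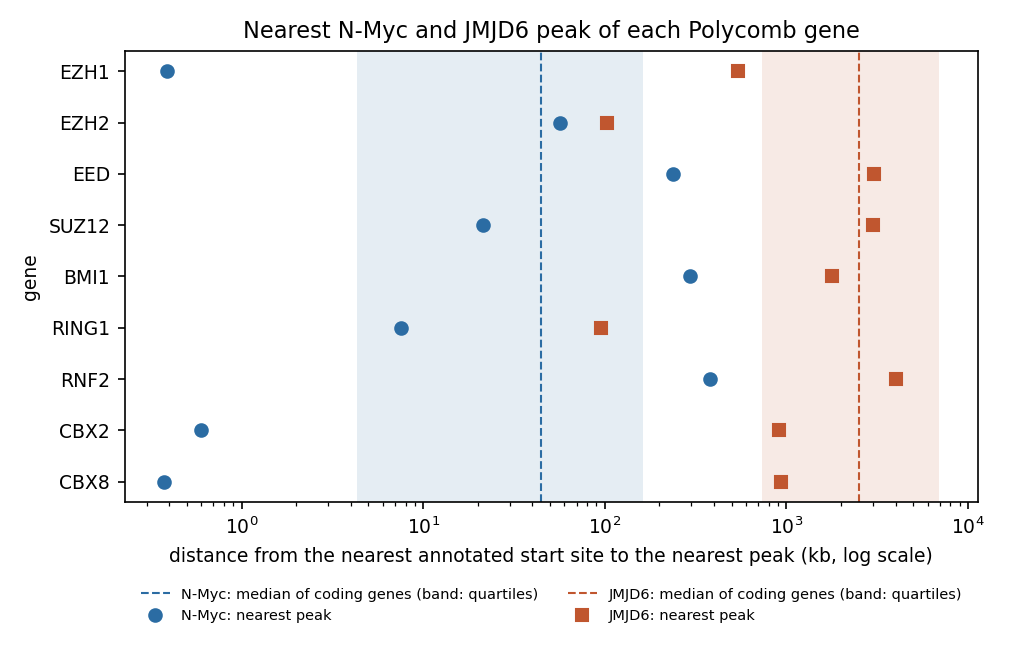
Distance from an annotated start site of each gene to its nearest N-Myc peak (circles) and JMJD6 peak (squares), on a log axis in kb, with the median (dashed) and quartiles (bands) of all coding genes. EZH1, CBX2 and CBX8 lie under 1 kb from an N-Myc peak, as their promoter listing implies. No gene has a JMJD6 peak nearer than 95.9 kb.

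All 3 genes with an N-Myc promoter are on chromosome 17, as is SUZ12, which was not listed. Chromosome 17 thus held 3 listed of 4 genes, and the other chromosomes 0 of 5. Of all coding genes on chromosome 17, 22.7% had an N-Myc promoter, beside 17.2% elsewhere. The study describes CHP-134 as carrying a gain of the distal long arm of chromosome 17. On that arm EZH1, CBX2 and CBX8 lie more distal than the unlisted SUZ12, at chr17:30264026-30328057. The limits of the gain are not in the lists, and SUZ12 is not read as lying inside it. Copy number was not measured in the lists, and its part in these counts was not tested.

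The counts were set beside a wider list of 45 Polycomb genes, the 9 included. Of these, 12 had a promoter listed for N-Myc, or 26.7%, beside 17.5% of coding genes. An N-Myc typical enhancer was assigned to 23, or 51.1%, beside 31.9% of coding genes. Of the 36 added genes alone, 9 had an N-Myc promoter and 18 an N-Myc enhancer, and none was in a JMJD6 list. The JMJD6 shares of coding genes were only 0.626% for promoters and 0.909% for typical enhancers, so that absence is near the background. By complex, the promoter counts were small and are read beside the 17.5% of coding genes. The genes grouped here as PRC2 accessory, which mostly guide or tune PRC2, included RBBP4 and RBBP7. In that group 3 of 9 had an N-Myc promoter: the PHD finger proteins MTF2 and PHF19, and EPOP. Among the further canonical PRC1 subunits it was 1 of 9, the polyhomeotic gene PHC2. Among variant PRC1 subunits it was 3 of 14, with PCGF1, L3MBTL2 and DCAF7. In the PR-DUB complex, which removes ubiquitin from histone H2A, ASXL1 and ASXL3 were listed, 2 of 4.

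In 7 of these 9 added genes a promoter peak covered an annotated start site, which was so for 0 of EZH1, CBX2 and CBX8. For 6 of the 7 it was a start of the gene itself, and for PHC2 it was that of another gene. These counts are by gene, and PHF19 had 2 promoter peaks. By peak, 33.2% of the 3550 N-Myc promoter peaks covered no annotated start site, and the contrast was not tested. Among the 6 were MTF2, L3MBTL2 and ASXL1, with peaks of 577, 613 and 449 bp. EPOP and ASXL3 were the exceptions, and ASXL3 had a peak from 405 to 815 bp downstream of the listed start and 2 copies of CACGTG. EPOP and PCGF1 each had 1 CACGTG in the promoter peak. With ASXL3, 3 of the 9 added genes had the motif in a promoter peak, and the other 6 had none, beside 36.9% of all promoter peaks. KDM2B, BCOR and MGA had an N-Myc peak within 1 kb of an annotated start and no listed promoter. The promoter lists held 0 rows on chromosome X, although 120 N-Myc peaks lay there, so the 5 Polycomb genes on that chromosome, BCOR among them, are not read as unbound. On chromosome 17 the wider list had 5 of 8 genes listed, and on the other chromosomes 7 of 37.

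Super-enhancers bound by N-Myc named 3 of the 45 genes, or 6.67%, beside 1.31% of coding genes. The PHC2 super-enhancer, chr1:33802011-33832640, was 30.6 kb long and held 2 N-Myc peaks, of which one was its promoter peak. That of PCGF2, a BMI1 paralogue, was chr17:36885902-36910254, 24.4 kb long, also with 2 peaks. That of JARID2, a PRC2 cofactor, was chr6:15388362-15407118, 18.8 kb long, with 1 peak, and was placed 151213 bp from the JARID2 start. None held a JMJD6 peak. Each of these rows named another gene as well, A3GALT2 with PHC2, CISD3 with PCGF2 and DTNBP1 with JARID2. The PCGF2 super-enhancer also overlapped the N-Myc promoter listed for PSMB3.

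**Figure D5:**
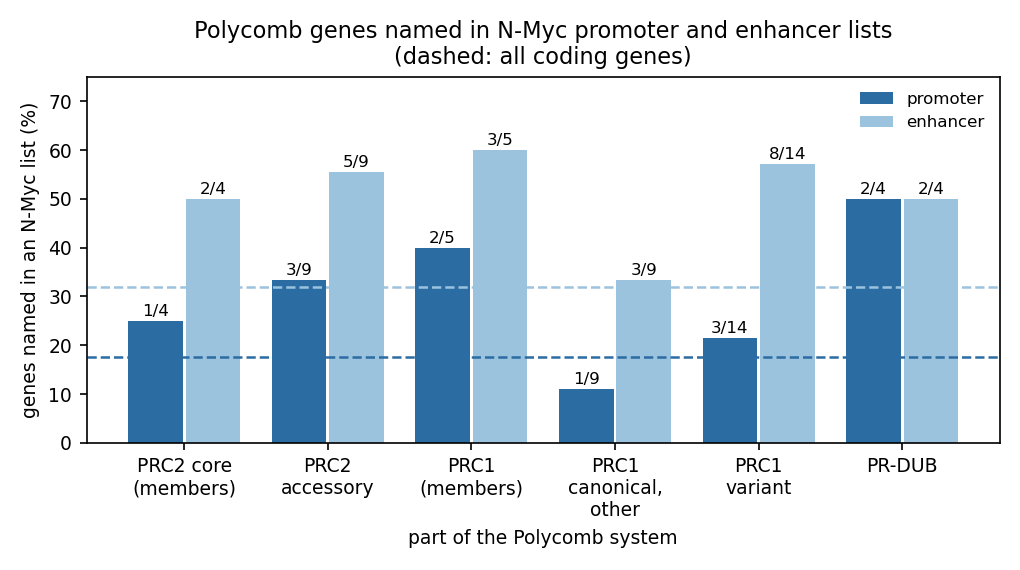
Share of genes (y axis, percent) in each part of the Polycomb system (x axis) with an N-Myc promoter (dark) or typical enhancer (light), with the number of genes above each bar and the shares of all coding genes as dashed lines. Promoter shares run from 1 of 9 for the further canonical PRC1 genes to 2 of 4 for PR-DUB.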

How the data were processed

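The 6 samples were grouped by the antibody in their labels, 3 for N-Myc and 3 for JMJD6. Per the labels and methods, the authors aligned reads with BWA to hg19, used SAMtools and bedtools, and called peaks against input with MACS2 2.1.1.20160309. Enhancers came from H3K27ac peaks ranked with ROSE, and their genes from GREAT. The deposited values used here are positions in bp of pooled, replicate-filtered regions, and no column belongs to 1 sample.

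Member names, and older symbols through RefSeq synonyms, were matched to GENCODE 44 on GRCh37. In the N-Myc promoter list 95.5% of symbols matched. Of 4904 promoters with a matched symbol, 88% had their centre within 100 bp of an annotated start of that symbol, and so had all 12 of the wider Polycomb list. Overlap meant at least 1 bp. Motifs were searched on both strands of the reference. Intervals are exact 95% binomial and cover counting error only. Procedures were tested on simulated intervals and sequences. No between-group test was run. Python 3.11.15, numpy 2.4.6, SciPy 1.17.1, pysam 0.24.0 and matplotlib 3.10.9 were used.

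The members and lists were chosen with earlier results of these data known. All 9 members were named. Of the wider list, genes with a listed promoter, a JMJD6 row or a super-enhancer were named, and KDM2B, BCOR and MGA were named after their values were seen. An item of the wider list is not reported here by name.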

Additional observations from a re-analysis of the deposited data

How the results depend on the processing

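Alternatives tried were the distance to a start site, peak width, overlap, region choice, motif and gene set. The count of 3 genes with an N-Myc promoter was also 3 with a peak within 1 kb or 5 kb of any annotated start and with at least 50% of the peak in the promoter. It was 1 (EZH1) with only peaks at or above the median width of 418 bp, and 0 without chromosome 17, an alternative chosen after seeing the data. The count of 5 genes with an N-Myc enhancer was 1 (EZH2) when enhancers overlapping an N-Myc promoter were left out. The E-box CACGTG was in the promoter peak of 1 of the 3 genes. The count was 2 when the CACGCG form was accepted as well, 2 when the CATGCG form was also accepted (chosen after seeing the data), and 3 for the loose pattern CANNTG. The wider list gave 12 genes, and 7 without chromosome 17, also chosen after seeing the data, and 15 or 18 with a peak within 1 kb or 5 kb. The share of coding genes with an N-Myc promoter, 17.5%, was 18.4% on autosomes, 6.36% over all annotated genes, and 20.8% with a peak within 1 kb of any start. The count of 0 for JMJD6 promoters was also 0 with a JMJD6 peak within 1 kb or 5 kb of any annotated start. For N-Myc super-enhancers the only alternative kept rows at 100 kb or less, which could not raise a count of 0.

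No paired analysis was possible because the lists hold no values per sample, and leaving out single replicates was not run for the same reason. With no heights or reads in the lists, a gene that is not listed is not shown to be free of N-Myc or JMJD6.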

Other observations

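The peaks over RNY5 and RNY1 led to a count of peaks that cover a whole gene annotated as snRNA or misc_RNA, the class that holds Y RNAs. It was made after those peaks had been seen. Such a gene lay under 11 of 549 JMJD6 peaks, or 2% (95% confidence interval 1 to 3.56%), and under 15 of 10165 N-Myc peaks, or 0.148% (0.0826 to 0.243%). Shared with N-Myc were the JMJD6 peaks over RNU1-1, RNU2-2P, RNU2-59P, RNU5A-1, RNU5A-8P, RNU5B-1, RNU5E-1 and RNU6-2, all annotated as snRNA. The JMJD6 peaks over RNY1, RNU1-60P and RNU5E-4P were not shared. Most of the JMJD6 count thus came from peaks that the N-Myc count holds too. CACGTG was found in 5.65% of the JMJD6 peaks (3.87 to 7.92%) and in 33.5% of the N-Myc peaks (32.5 to 34.4%). The groups differ in fixation as well as in antibody, the difference was not tested, and near-identical copies of these genes can share reads.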
